A study of Mus musculus with 9 samples.

Results

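Transcripts of 39 macrophage and myeloid genes were followed in mouse limb cultures kept with either of 2 caspase inhibitors. The list was drawn up with earlier results of these data known, so it was not tested as a set. The genes were taken by symbol from a table of 52550 genes. They matched 40 gene rows, because Itgam had a second identifier, which held 1 count in all libraries together and was left out. Of the 39 genes, 37 had enough counts for the test, and Cd163 and Lyve1 did not. Macrophages are phagocytes that settle in embryonic tissues and clear dying cells, and their growth and survival depend on the receptor Csf1r. The transcription factor PU.1, the product of Spi1, binds the promoters and enhancers of many of the genes that define this lineage. Caspases are proteases that carry out apoptosis, and some of them take part in inflammatory signalling.

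The cultures were micromasses, dense drops of mouse forelimb cells taken at embryonic day 12, and the labels call the material limb-derived chondroblasts. They received Z-VAD-FMK (FMK) at 100 µM, Q-VD-OPH (OPH) at 100 µM, or DMSO, the vehicle of both. Treatment began once the cells had attached overnight and lasted 6 days, with medium renewed every second day, and each group had 3 libraries that the labels call biological replicates. No mouse strain is given in the labels. Z-VAD-FMK is a peptide with a fluoromethyl ketone group and Q-VD-OPH a shorter peptide with a difluorophenoxymethyl ketone group, and both block a broad range of caspases. RNA was read at transcript 3' ends, and a count stands for a read of such an end, not for a transcript.

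Libraries held 5659789 to 6867350 counts. Levels are CPM, counts relative to a library size scaled by TMM, a method that sets most genes to the same level in all libraries. The cartilage marker list summed to 2947 to 4324 CPM with DMSO, 1495 to 1607 CPM with FMK and 1446 to 2525 CPM with OPH, with Col2a1, the main cartilage collagen, at 1333 ± 301 CPM with DMSO (SD, n = 3). The adipocyte list summed to 580.1 to 3145 CPM with DMSO, 157 to 256 CPM with FMK and 868 to 3495 CPM with OPH. In each group library 3 had the lowest adipocyte sum and the highest skeletal muscle sum. The part of these other cells in the results below was not tested.

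With FMK nearly all macrophage transcript was lost, and with OPH a larger but uneven share remained. The 39 genes together summed to 2904 ± 911 CPM with DMSO (SD, n = 3), 54.7 ± 12.0 CPM with FMK and 339.5 ± 19.0 CPM with OPH. The FMK sum was 1.88% of the DMSO sum and the OPH sum 11.7%, or 13.1% when Lyz2 was left out. By library the sums were 3141, 3673 and 1898 CPM with DMSO, 41.7, 65.3 and 57.1 CPM with FMK and 320.7, 358.8 and 339.1 CPM with OPH. The 3 groups did not overlap. In bulk RNA, fewer cells of a type and less RNA per cell cannot be told apart.

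Each comparison was tested with edgeR's quasi-likelihood test over 13255 genes, and a gene was called at a Benjamini-Hochberg adjusted p below 0.05. An adjusted p with no tool named comes from this test. The level left is the fitted ratio to DMSO in percent, followed in parentheses by its 95% interval. A ± after a log2 fold change is its standard error, and a ± after a CPM value is the SD. All 37 genes tested were lower with FMK than with DMSO, against 10.1% of all genes tested, and in all 37 the 3 FMK libraries lay below the 3 DMSO libraries, against 18.1% of all genes. The median log2 fold change of the 37 was -6.05, and that of all genes -0.01. Of the 37, 31 kept less than 5% of the DMSO level and 6 kept 5% to 25%.

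With OPH 35 of the 37 were lower than with DMSO, against 8.11% of all genes tested, and 2 were not called, Fcgr1 and Itgb2. In 34 of the 37 the OPH libraries lay below the DMSO libraries, against 17.1% of all genes. The median log2 fold change was -2.89, and that of all genes -0.00. Here 6 kept less than 5%, 24 kept 5% to 25% and 7 kept 25% or more. The genes passed the filter on low counts through the DMSO libraries: 37 of the 39 reached its level of 1.55 CPM in all 3 DMSO libraries, 26 in all 3 OPH libraries and 4 in all 3 FMK libraries. The counts of lower genes are therefore a description of the 37, and they share the DMSO libraries between both comparisons.

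**Figure D1:**
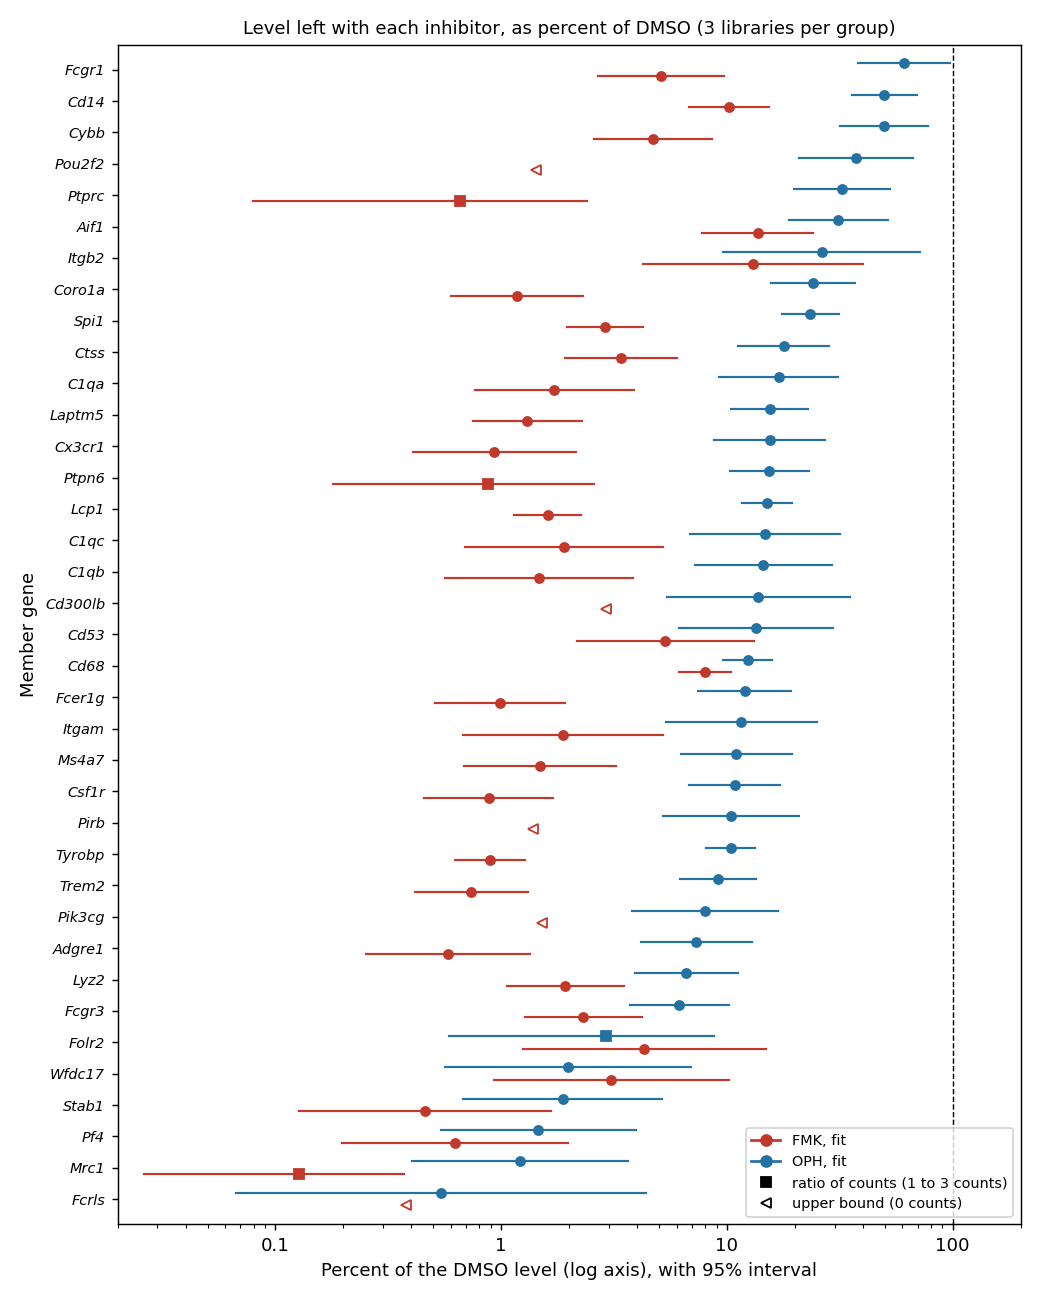
Level left with FMK (red) and OPH (blue) as percent of the DMSO level on a log axis, for the 37 genes tested, with lines for 95% intervals, squares for ratios of counts where a group held 1 to 3 counts, and open triangles for upper bounds where a group held 0 counts. Fcgr1, Cd14 and Cybb are at the top for OPH at 49.7% to 61.0%, and Fcrls, Mrc1 and Pf4 at the bottom at 0.543% to 1.46%.

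The promoters of the genes at both ends of this range are shown because the letters of PU.1 sites were not used in the choice of genes. RefSeq promoter entries (GRCm38.p6, 250 bases before to 50 bases after the start) were found for 31 of the 39 genes, in 38 windows. Missing were C1qa, Spi1, Tyrobp, Lyve1, Cd14, Csf1r, Itgb2 and Adgre1. The letters GAGGAA, the core of PU.1 sites, were searched on both strands. They were present in 22 of the 31 (71.0%), and in 31.25% of 27025 genes with an entry (28.3% of 32851 windows). The longer GAGGAAGT, which contains the first motif, was in 6 of the 31 (19.4%) and in 3.69% of all genes. A letter pattern of interferon-stimulated elements, GAAANNGAA, was in 5 of the 31 (16.1%: Folr2, Ms4a7, Ctss, Aif1 and Cybb) and in 9.76% of all genes. A match describes the letters and is not a measured binding site.

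The 4 windows below are those of the genes with an entry that kept the highest (Fcgr1, Cybb) and lowest (Fcrls, Mrc1) share of the DMSO level with OPH, 5′ to 3′ on the strand of the gene. Capitals mark matches to GAGGAA or GAAANNGAA on either strand. They lie at chr3:96293920-96294219 (minus strand), chrX:9469275-9469574 (minus strand), chr3:87263475-87263774 (minus strand) and chr2:14229164-14229463 (plus strand).
Fcgr1: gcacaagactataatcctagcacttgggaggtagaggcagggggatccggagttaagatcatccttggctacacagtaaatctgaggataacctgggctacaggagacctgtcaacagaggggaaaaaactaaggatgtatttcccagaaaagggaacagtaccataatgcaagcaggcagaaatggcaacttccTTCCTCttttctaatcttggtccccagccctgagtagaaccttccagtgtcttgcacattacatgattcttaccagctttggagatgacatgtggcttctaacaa
Cybb: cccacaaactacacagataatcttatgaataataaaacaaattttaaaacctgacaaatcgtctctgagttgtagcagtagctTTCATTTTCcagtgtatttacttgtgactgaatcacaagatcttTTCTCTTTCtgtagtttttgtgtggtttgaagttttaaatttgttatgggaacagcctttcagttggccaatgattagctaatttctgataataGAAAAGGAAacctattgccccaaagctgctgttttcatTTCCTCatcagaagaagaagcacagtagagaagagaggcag
Fcrls: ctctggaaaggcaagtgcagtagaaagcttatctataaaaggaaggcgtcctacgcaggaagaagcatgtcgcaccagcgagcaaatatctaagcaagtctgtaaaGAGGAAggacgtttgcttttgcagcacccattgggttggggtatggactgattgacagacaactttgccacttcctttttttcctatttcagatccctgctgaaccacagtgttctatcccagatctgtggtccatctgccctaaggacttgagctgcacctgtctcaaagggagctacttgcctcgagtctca
Mrc1: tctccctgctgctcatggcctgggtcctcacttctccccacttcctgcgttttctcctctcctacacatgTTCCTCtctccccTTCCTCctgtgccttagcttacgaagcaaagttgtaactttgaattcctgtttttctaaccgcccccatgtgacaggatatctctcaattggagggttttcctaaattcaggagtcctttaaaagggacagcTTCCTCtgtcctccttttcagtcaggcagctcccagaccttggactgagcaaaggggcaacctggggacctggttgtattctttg
All 4 windows held GAGGAA or its reverse complement, once in Fcgr1, Cybb and Fcrls and 3 times in Mrc1. The interferon pattern matched 3 times in Cybb and was absent from the other windows shown. GAGGAA thus stood in promoters at both ends of the range.

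Both transcription factor genes fell with both inhibitors. Spi1, which encodes PU.1, stood at 38.3, 41.2 and 29.6 CPM with DMSO, 0.815, 1.24 and 1.10 CPM with FMK and 7.97, 9.36 and 8.21 CPM with OPH. The 3 groups did not overlap, and the level left was 2.89% (1.96% to 4.27%) with FMK (log2 fold change -5.11 ± 0.27, adjusted p = 1.68e-10) and 23.4% (17.6% to 31.3%) with OPH (adjusted p = 7.17e-07). Pou2f2, which encodes the octamer-binding factor OCT2, stood at 13.2, 16.7 and 5.66 CPM with DMSO, 0 in all 3 libraries with FMK and 4.41, 4.11 and 4.74 CPM with OPH. It held 90 counts in the OPH libraries and 0 in the FMK libraries, so that at most 1.43% was left with FMK (adjusted p = 1.25e-06), where the bound comes from a floor of 3 counts over the group and covers counting error only. With OPH 37.3% (20.9% to 66.6%) was left (adjusted p = 0.0204). That OPH call was lost without DMSO library 1 or 2 or without any 1 of the OPH libraries (adjusted p = 0.0527 to 0.145).

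Receptors that mark macrophage identity were reduced to traces with FMK and kept 7.32% to 15.5% with OPH. Csf1r, the receptor of the macrophage growth factors CSF1 and IL-34, stood at 175, 214 and 122 CPM with DMSO, 0.326, 2.17 and 2.02 CPM with FMK and 17.1, 16.3 and 21.9 CPM with OPH. Its level left was 0.879% (0.457% to 1.69%) with FMK and 10.8% (6.78% to 17.2%) with OPH (adjusted p = 8.45e-06 and 0.000181). Adgre1, which encodes the F4/80 antigen, stood at 81.6, 76.1 and 42.8 CPM with DMSO, 0.978, 0 and 0.184 CPM with FMK and 6.40, 4.26 and 3.95 CPM with OPH. The FMK libraries held 6, 0 and 1 counts of it. Adgre1 kept 0.581% (0.251% to 1.34%) with FMK, 0.126% without FMK library 1 and 0.907% without FMK library 2, and 7.32% (4.16% to 12.9%) with OPH. Cx3cr1, the receptor of the chemokine CX3CL1, stood at 83.5, 174 and 80.6 CPM with DMSO, 0.489, 1.55 and 1.10 CPM with FMK and 14.5, 17.7 and 20.2 CPM with OPH. DMSO library 2 held about as much Cx3cr1 as the other 2 DMSO libraries together, and 0.933% (0.406% to 2.14%) was left with FMK and 15.5% (8.81% to 27.2%) with OPH. All 3 receptors were called lower with both inhibitors. Cx3cr1 and Csf1r overlap other genes in the annotation, and whether strand was used in counting is not given in the sources used here, so their values are uncertain to that extent.

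Adaptors and signalling genes of the lineage, 7 in number, were all called lower with both inhibitors. Tyrobp, which encodes the adaptor DAP12, stood at 114, 145 and 95.9 CPM with DMSO, 0.652, 1.08 and 1.47 CPM with FMK and 10.8, 13.8 and 12.3 CPM with OPH. It had the smallest adjusted p of the 37 in both comparisons, with a log2 fold change of -6.81 ± 0.24 with FMK (adjusted p = 1.29e-12) and -3.26 ± 0.17 with OPH (adjusted p = 2.62e-10). Fcer1g, the Fc receptor common gamma chain, stood at 214, 221 and 121 CPM with DMSO, 0.978, 1.86 and 2.75 CPM with FMK and 16.9, 24.1 and 25.9 CPM with OPH. These adaptors kept nearly the same share, Tyrobp 0.892% (0.625% to 1.27%) with FMK and 10.4% (8.10% to 13.4%) with OPH, and Fcer1g 0.989% (0.511% to 1.91%) and 12.0% (7.48% to 19.3%). Pik3cg, a phosphoinositide 3-kinase of leukocytes, stood at 12.7, 12.1 and 8.41 CPM with DMSO, 0 in all 3 libraries with FMK and 1.28, 0.284 and 1.11 CPM with OPH, so that at most 1.51% was left with FMK and 8.0% (3.78% to 16.9%) with OPH.

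Ptprc, the pan-leukocyte phosphatase CD45, kept more than the other signalling genes with OPH. Its values were 19.7, 20.0 and 11.5 CPM with DMSO, 0, 0 and 0.367 CPM with FMK and 6.40, 5.82 and 4.26 CPM with OPH, and the FMK libraries held 2 counts together. The level left was 0.656% (0.0792% to 2.39%) with FMK, an interval that covers counting error only, and 32.4% (19.8% to 53.0%) with OPH (adjusted p = 9.32e-08 and 0.00269). Ptpn6, the phosphatase SHP-1, stood at 16.9, 21.4 and 18.7 CPM with DMSO, 0.163, 0.155 and 0.184 CPM with FMK and 3.13, 3.12 and 2.53 CPM with OPH, and kept 0.876% (0.1798% to 2.58%) with FMK as a ratio of counts and 15.4% (10.3% to 23.1%) with OPH. The lysosomal membrane gene Laptm5 stood at 113, 147 and 98.0 CPM with DMSO, 0.489, 1.55 and 2.75 CPM with FMK and 14.4, 22.7 and 18.3 CPM with OPH, and kept 1.31% (0.752% to 2.27%) with FMK, 0.865% without FMK library 3, and 15.5% (10.4% to 23.0%) with OPH. Cd53, a tetraspanin of leukocytes, was the signalling gene with most left in FMK. Its levels were 25.8, 42.6 and 19.9 CPM with DMSO, 0.326, 1.24 and 3.30 CPM with FMK and 5.83, 2.70 and 3.32 CPM with OPH, and FMK library 3 lay within the range of the OPH libraries. It kept 5.34% (2.17% to 13.2%) with FMK, 2.70% without FMK library 3, and 13.5% (6.16% to 29.4%) with OPH.

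**Figure D2:**
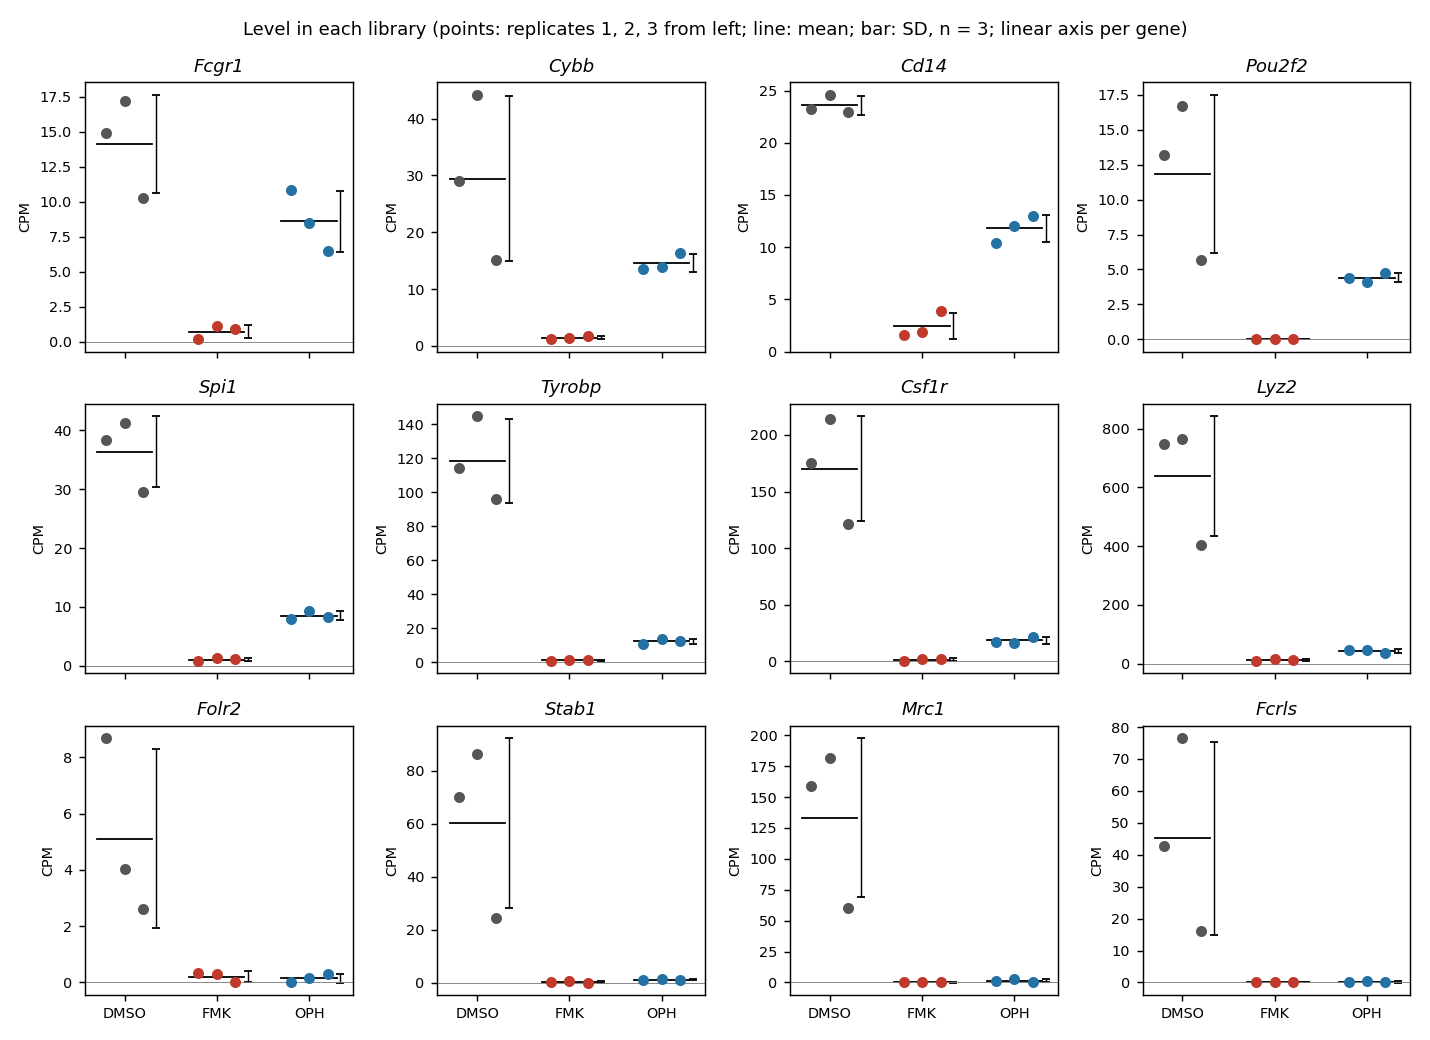
CPM in each of the 9 libraries for 12 of the genes, on linear axes that differ between panels, with points for replicates 1, 2 and 3 from left to right, a line for the mean and a bar for the SD (n = 3). The OPH points of Fcgr1 reach into the DMSO range (6.47 to 10.8 against 10.3 to 17.2 CPM), while those of Mrc1, Stab1 and Fcrls lie near 0.

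Receptors of the Fc and immunoglobulin-like families split most widely with OPH. Fcgr1, the high-affinity IgG receptor CD64, stood at 14.9, 17.2 and 10.3 CPM with DMSO, 0.163, 1.08 and 0.918 CPM with FMK and 10.8, 8.51 and 6.47 CPM with OPH. OPH library 1 lay above DMSO library 3, and OPH left 61.0% (38.3% to 97.3%), a log2 fold change of -0.71 ± 0.32 that was not called (adjusted p = 0.148, and 0.0662 to 0.411 over 18 alternatives). With FMK the same gene was called at 5.10% (2.68% to 9.69%) (adjusted p = 1.22e-06). Fcgr3, the low-affinity IgG receptor CD16, stood at 72.2, 96.2 and 46.7 CPM with DMSO, 0.815, 2.47 and 1.65 CPM with FMK and 2.99, 5.25 and 5.05 CPM with OPH. It kept 2.32% (1.28% to 4.19%) with FMK and 6.17% (3.72% to 10.2%) with OPH, and all its inhibitor libraries lay below 5.3 CPM. Counts of Fcgr1 per count of Fcgr3 were 0.206, 0.179 and 0.2205 with DMSO and 3.62, 1.62 and 1.28 with OPH, a pair chosen after its values were seen. Reads that near-identical Fc receptor genes share may have been split or dropped, so both values are uncertain to that extent.

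Fcrls, an Fc receptor-like gene of resident macrophages and microglia, had the least left with OPH of the 37 genes. It stood at 42.7, 76.6 and 16.1 CPM with DMSO, 0 in all 3 libraries with FMK and 0.142, 0.567 and 0 CPM with OPH, with the lowest value of the DMSO group in library 3. The level left was at most 0.377% with FMK (adjusted p = 0.0119) and 0.543% (0.0671% to 4.40%) with OPH (adjusted p = 0.0156), with 5 counts in the OPH libraries. The OPH value was 0.832% without DMSO library 2 and 0.166% without OPH library 2. The FMK call was lost with only the 2 groups in the fit (adjusted p = 0.104) and with limma-voom (adjusted p = 0.141). The OPH call was lost with limma-voom and without DMSO library 1 or any 1 of the OPH libraries (adjusted p = 0.0509 to 0.219).

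Pirb, an inhibitory receptor for MHC class I, and Cd300lb, an activating receptor, were at 0 in every FMK library. Pirb stood at 15.2, 10.9 and 10.2 CPM with DMSO, 0 in all 3 libraries with FMK and 1.28, 1.99 and 0.474 CPM with OPH, and Cd300lb at 6.36, 6.12 and 4.64 CPM with DMSO, 0 in all 3 libraries with FMK and 1.28, 0.142 and 0.947 CPM with OPH. Bounds with FMK were at most 1.38% for Pirb and at most 2.93% for Cd300lb, and OPH left 10.4% (5.23% to 20.8%) and 13.8% (5.44% to 34.9%). Pirb has close relatives in the Pira family, and reads shared with them make its value uncertain. Trem2, a lipid-sensing receptor that signals through Tyrobp, stood at 30.4, 34.1 and 25.5 CPM with DMSO, 0.163, 0.309 and 0.184 CPM with FMK and 1.99, 3.69 and 2.53 CPM with OPH. It kept 0.738% (0.413% to 1.32%) with FMK and 9.13% (6.19% to 13.5%) with OPH, with 4 counts in the FMK libraries.

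The integrin genes Itgam and Itgb2 encode the 2 chains of complement receptor 3. Itgam stood at 19.4, 23.5 and 18.4 CPM with DMSO, 0.163, 0.928 and 0 CPM with FMK and 0.569, 3.12 and 3.47 CPM with OPH, below DMSO in all 6 inhibitor libraries. It was called lower with both inhibitors, at 1.88% (0.678% to 5.24%) with FMK, 0.424% without FMK library 2, and 11.6% (5.36% to 25.1%) with OPH. Itgb2 was a low gene throughout, at 6.52, 2.09 and 5.51 CPM with DMSO, 0, 0.773 and 1.10 CPM with FMK and 0.569, 0.993 and 2.21 CPM with OPH. OPH library 3 reached the level of DMSO library 2, and the OPH value of 26.3% (9.65% to 71.9%) was not called (adjusted p = 0.0657). It was called with the replicate number as a block (adjusted p = 0.0206) and in 4 other alternatives, among them without FMK library 1 (adjusted p = 0.0407). The FMK value of 13.02% (4.23% to 40.1%) was called (adjusted p = 0.0109), but not without DMSO library 1 (adjusted p = 0.0553), and it was 19.8% without FMK library 1 and 8.35% without FMK library 3.

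Scavenger and endocytic receptors ranged with OPH from 1.21% left (Mrc1) to 49.9% (Cd14). Mrc1, the mannose receptor CD206, stood at 159, 181 and 60.2 CPM with DMSO, 0, 0.464 and 0 CPM with FMK and 1.28, 2.70 and 0.789 CPM with OPH. The counts were 2565 with DMSO, 3 with FMK and 33 with OPH, and the level left was 0.127% (0.0261% to 0.371%) with FMK as a ratio of counts and 1.21% (0.402% to 3.64%) with OPH, 0.786% without OPH library 2. Stab1, a receptor that takes up modified lipoproteins and dying cells, stood at 70.2, 86.3 and 24.4 CPM with DMSO, 0.326, 0.464 and 0 CPM with FMK and 0.996, 1.42 and 0.947 CPM with OPH. It kept 0.460% (0.127% to 1.66%) with FMK, 0.288% without FMK library 2, and 1.87% (0.679% to 5.16%) with OPH. Mrc1 and Stab1 were both called lower with both inhibitors, and limma-voom lost all of these calls (adjusted p = 0.0776 to 0.184). Stab1 overlaps Nt5dc2, on the opposite strand with 6213 counts in all, so reads of the 2 may not have been told apart.

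Folr2, the folate receptor beta of resident macrophages, was low already in the controls. It stood at 8.69, 4.02 and 2.61 CPM with DMSO, 0.326, 0.309 and 0 CPM with FMK and 0, 0.142 and 0.316 CPM with OPH, and kept 4.31% (1.24% to 15.0%) with FMK, 6.64% without DMSO library 1, and 2.90% (0.589% to 8.73%) with OPH as a ratio of counts. Ms4a7, a membrane protein gene of macrophages, stood at 56.2, 60.2 and 28.6 CPM with DMSO, 0.326, 1.55 and 0.184 CPM with FMK and 4.84, 6.67 and 4.42 CPM with OPH, and kept 1.48% (0.685% to 3.22%) with FMK, 0.539% without FMK library 2, and 11.03% (6.25% to 19.5%) with OPH. Cd163, the haemoglobin scavenger receptor, held 1 count in the 9 libraries, and Lyve1, a hyaluronan receptor of some resident macrophages, held 6 counts with DMSO, 0 with FMK and 5 with OPH. Neither was tested, and no loss can be read for them.

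Cd14 and Cd68 kept more than the other genes of this class with FMK. Cd14, the co-receptor for lipopolysaccharide, stood at 23.3, 24.6 and 22.9 CPM with DMSO, 1.63, 1.86 and 3.85 CPM with FMK and 10.4, 12.1 and 12.9 CPM with OPH. The 3 groups did not overlap, and 10.2% (6.78% to 15.3%) was left with FMK and 49.9% (35.7% to 69.9%) with OPH (log2 fold change -1.002 ± 0.23, adjusted p = 0.00566). Cd68, a glycoprotein of late endosomes and lysosomes, stood at 95.9, 99.6 and 68.9 CPM with DMSO, 8.15, 7.42 and 5.51 CPM with FMK and 11.2, 11.3 and 10.1 CPM with OPH. It kept 8.02% (6.13% to 10.48%) with FMK and 12.4% (9.63% to 15.9%) with OPH. Of the counts of the 39 genes in a library, Cd68 made up a mean of 3.13% with DMSO, 13.5% with FMK and 3.22% with OPH.

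The 3 chains of complement C1q, which is made mainly by macrophages and tags dying cells for clearance, were all called lower with both inhibitors. C1qa stood at 165, 220.5 and 98.2 CPM with DMSO, 1.304, 4.33 and 2.57 CPM with FMK and 21.6, 33.5 and 26.8 CPM with OPH. C1qb stood at 114, 165 and 69.2 CPM with DMSO, 3.10, 1.70 and 0.184 CPM with FMK and 14.7, 18.7 and 17.2 CPM with OPH, and C1qc at 106, 152 and 55.0 CPM with DMSO, 1.304, 3.71 and 0.734 CPM with FMK and 14.5, 13.1 and 18.8 CPM with OPH. The levels left with FMK were 1.72% (0.762% to 3.87%), 1.47% (0.565% to 3.84%) and 1.90% (0.693% to 5.20%), in the order C1qa, C1qb and C1qc, and those with OPH 17.0% (9.25% to 31.1%), 14.5% (7.20% to 29.3%) and 14.8% (6.89% to 31.7%). The FMK value of C1qb was 0.864% without FMK library 1 and that of C1qc 0.996% without FMK library 2. The intervals of the 3 chains overlapped in both comparisons. Counts of C1qa per count of C1qb were 1.44, 1.33 and 1.42 with DMSO and 1.48, 1.79 and 1.56 with OPH, and with FMK, from 1 to 28 counts per chain, they scattered between 0.421 and 14. Counts of C1qa per count of C1qc varied more with OPH, at 1.49, 2.57 and 1.43, against 1.55, 1.45 and 1.79 with DMSO. All 6 differences from DMSO were called (adjusted p = 0.000210 to 0.00813), and 1 was lost in an alternative, that of C1qc with FMK by limma-voom (adjusted p = 0.0504).

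Among secreted and lysosomal effectors, Ctss kept the most with OPH and Pf4 the least. Lyz2, lysozyme, stood at 746, 766 and 403 CPM with DMSO, 8.80, 14.8 and 13.2 CPM with FMK and 46.0, 45.7 and 34.9 CPM with OPH. It made up a mean of 22.0% of the counts of the 39 genes with DMSO and 12.5% with OPH, and kept 1.93% (1.06% to 3.49%) with FMK and 6.62% (3.92% to 11.2%) with OPH. Ctss, the protease cathepsin S, stood at 161, 173 and 81.4 CPM with DMSO, 5.54, 4.02 and 4.59 CPM with FMK and 27.3, 26.5 and 20.0 CPM with OPH, and kept 3.40% (1.93% to 6.01%) and 17.8% (11.2% to 28.3%). Pf4, the chemokine platelet factor 4, which is made by megakaryocytes and by some macrophages, stood at 129.8, 130.4 and 60.2 CPM with DMSO, 0, 1.08 and 0.918 CPM with FMK and 2.28, 1.99 and 0.316 CPM with OPH. It kept 0.623% (0.197% to 1.97%) with FMK, 0.946% without FMK library 1 and 0.408% without FMK library 2, and 1.46% (0.541% to 3.96%) with OPH. The megakaryocyte and platelet list summed to 10.7 to 15.6 CPM with DMSO, 14.1 to 26.4 CPM with FMK and 10.9 to 13.4 CPM with OPH, with Gp9, Gp1ba and Gp6 at 0 in all 9 libraries.

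Wfdc17, a secreted gene of activated macrophages, stood at 26.2, 27.5 and 5.80 CPM with DMSO, 0.326, 0.928 and 0.551 CPM with FMK and 0, 0.709 and 0.474 CPM with OPH, where DMSO library 3 was far below the other DMSO libraries. It kept 3.07% (0.925% to 10.2%) with FMK and 1.98% (0.563% to 6.97%) with OPH, or 3.02% without OPH library 1 and 1.14% without OPH library 2. Both calls were lost with limma-voom (adjusted p = 0.185 and 0.194). With limma-voom the FMK call of Pf4 was lost as well (adjusted p = 0.0675).

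The 3 actin-binding protein genes of leukocytes were called lower with both inhibitors. Lcp1, L-plastin, stood at 99.5, 99.5 and 81.6 CPM with DMSO, 0.978, 1.24 and 2.39 CPM with FMK and 15.9, 11.3 and 15.0 CPM with OPH, and kept 1.61% (1.14% to 2.27%) with FMK and 15.1% (11.7% to 19.4%) with OPH. Coro1a, coronin 1A, stood at 17.7, 18.2 and 20.6 CPM with DMSO, 0.326, 0.155 and 0.184 CPM with FMK and 2.85, 4.68 and 6.16 CPM with OPH, and kept 1.18% (0.602% to 2.30%) and 24.1% (15.7% to 37.0%). Bola2 overlaps Coro1a on the opposite strand, with 5169 counts in all, and reads of the 2 may not have been told apart. Aif1, the calcium-binding protein IBA1, kept the largest share with FMK of the 37 genes, 13.7% (7.78% to 24.0%), and 31.2% (18.8% to 51.8%) with OPH. It stood at 16.0, 22.5 and 9.72 CPM with DMSO, 1.63, 3.40 and 1.47 CPM with FMK and 3.84, 5.67 and 5.53 CPM with OPH, and the inhibitor libraries lay below those of DMSO.

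Cybb, the catalytic subunit of the phagocyte NADPH oxidase, was split between the inhibitors. It stood at 29.0, 44.3 and 15.1 CPM with DMSO, 1.14, 1.39 and 1.65 CPM with FMK and 13.5, 13.9 and 16.4 CPM with OPH. OPH library 3 exceeded DMSO library 3, and 49.7% (31.8% to 77.6%) was left with OPH (log2 fold change -1.01 ± 0.30, adjusted p = 0.0334). That call was lost in 10 of 18 alternatives, among them without any 1 library other than DMSO library 3 (adjusted p = 0.0553 to 0.184). With FMK 4.72% (2.58% to 8.63%) was left (adjusted p = 2.84e-06), a call that was kept in all 18. Counts of Cybb per count of Lyz2 were 0.0389, 0.0578 and 0.0374 with DMSO, 0.130, 0.0938 and 0.125 with FMK and 0.294, 0.304 and 0.471 with OPH, a pair chosen after its values were seen.

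The inhibitors were compared directly as 1 pair, at the same dose and time. Of the 37 genes, 25 were higher with OPH than with FMK, against 4.20% of all genes tested, 0 were lower, against 4.66%, and 12 were not called. In 30 of the 37 the OPH libraries lay above the FMK libraries, against 13.9% of all genes. The median log2 fold change was 2.96, and that of all genes 0.01. With limma-voom 12 of the 25 calls were kept and 13 lost. With the replicate number as a block 30 were higher, and the count over all genes rose from 1175 (8.86%) to 2139. Over all genes the count was 712 without FMK library 1, 709 without FMK library 2 and 571 without OPH library 2.

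**Figure D3:**
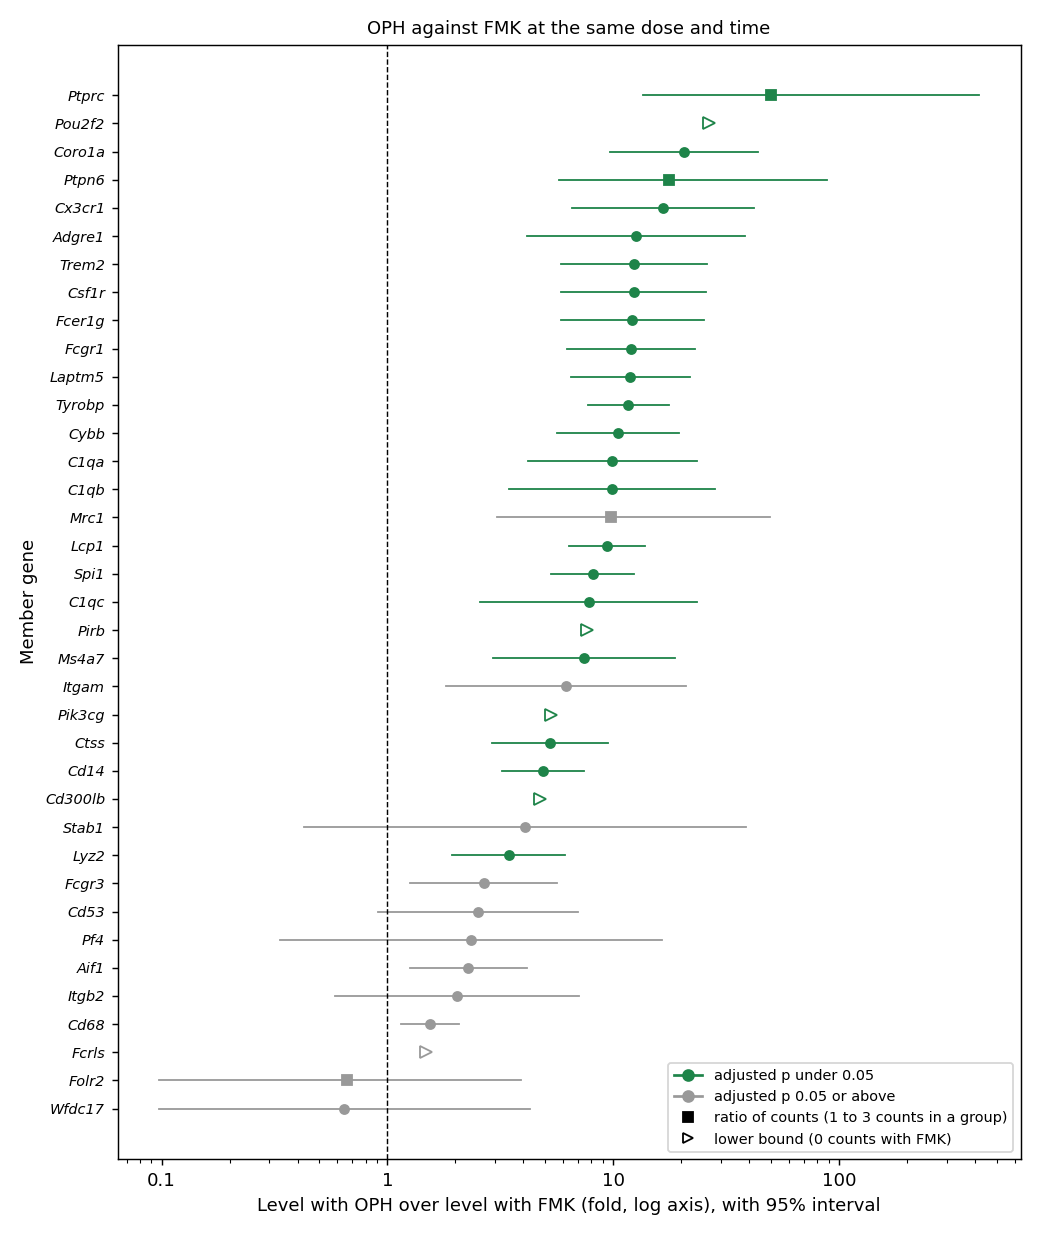
Level with OPH over level with FMK on a log axis, for the 37 genes tested, with lines for 95% intervals, squares for ratios of counts, open triangles for lower bounds where FMK held 0 counts, green for an adjusted p under 0.05 and grey for the others. Green genes range from 3.44-fold (Lyz2) to 50.0-fold (Ptprc, from 2 counts with FMK), and Folr2 and Wfdc17 lie left of equality with intervals that span it.

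Ptprc was higher with OPH by a count ratio of 50.0-fold (13.5 to 418), which rests on 2 counts with FMK. Pou2f2 was higher by at least 26.5-fold, against the floor in FMK. Fitted ratios followed for Coro1a at 20.5-fold (9.64 to 43.6) and Cx3cr1 at 16.6-fold (6.55 to 42.0), and Ptpn6 had a count ratio of 17.7-fold (5.77 to 88.2). Adjusted p for these 5 genes was 5.18e-05, 0.000147, 5.11e-05, 0.00567 and 8.17e-05. Next were ratios of 10.52 to 12.6-fold, with overlapping intervals: Adgre1 at 12.6-fold (4.14 to 38.3), Trem2 at 12.4-fold (5.87 to 26.1), Csf1r at 12.3-fold (5.89 to 25.7), Fcer1g at 12.2-fold (5.88 to 25.1), Fcgr1 at 12.0-fold (6.21 to 23.1), Laptm5 at 11.9-fold (6.46 to 21.8), Tyrobp at 11.7-fold (7.71 to 17.6) and Cybb at 10.52-fold (5.65 to 19.6). Adgre1 was 58.1-fold without FMK library 1 and 8.08-fold without FMK library 2, its call was lost without FMK library 3 (adjusted p = 0.0590), and Laptm5 was 17.9-fold without FMK library 3. With the libraries numbered 1 and 2 alone Cx3cr1 was not called (adjusted p = 0.0783).

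The other called genes were given by ratios or bounds. Ratios were 9.38-fold (6.39 to 13.8) for Lcp1, 8.09-fold (5.30 to 12.4) for Spi1, 7.43-fold (2.94 to 18.8) for Ms4a7, 5.24-fold (2.89 to 9.48) for Ctss, 4.90-fold (3.23 to 7.44) for Cd14 and 3.44-fold (1.93 to 6.11) for Lyz2. C1qa, C1qb and C1qc were higher by 9.89-fold (4.19 to 23.3), 9.86-fold (3.43 to 28.3) and 7.78-fold (2.57 to 23.5) (adjusted p = 0.0118, 0.0249 and 0.0426). Bounds were at least 7.66-fold for Pirb, at least 5.31-fold for Pik3cg and at least 4.72-fold for Cd300lb. Several of these calls were lost when 1 library, often any of several, was left out. That of C1qc was lost in 10 alternatives, among them the block (adjusted p = 0.0555) and without DMSO library 1 or any 1 FMK or OPH library (adjusted p = 0.0513 to 0.143). C1qb lost its call without FMK library 2 or any 1 OPH library (adjusted p = 0.0610 to 0.0931), Lyz2 without any 1 FMK library or OPH library 1 or 2 (adjusted p = 0.0617 to 0.0912) and Ms4a7 without FMK library 1 or OPH library 2 (adjusted p = 0.0707 and 0.0683). Cd300lb lost it without DMSO library 2, any 1 FMK library or OPH library 1 or 3, and in the libraries numbered 1 and 2 (adjusted p = 0.0502 to 0.0994). Without FMK library 1, C1qb was 16.8-fold, and without FMK library 2, C1qc was 14.8-fold and Ms4a7 20.5-fold.

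For 12 genes a difference between the inhibitors was not called, which does not show that the levels were alike. Scavenger receptors were the largest class among them. Mrc1 had a count ratio of 9.73-fold (3.05 to 49.6), an interval that covers counting error only, and an adjusted p of 0.362 in the fit. Stab1 stood at 4.07-fold (0.427 to 38.9), Folr2 at a count ratio of 0.663-fold (0.0972 to 3.92) and Cd68 at 1.54-fold (1.15 to 2.07). Both integrins belonged here, Itgam at 6.16-fold (1.81 to 20.9) and Itgb2 at 2.02-fold (0.583 to 7.01), as did Fcgr3 at 2.66-fold (1.26 to 5.60), Cd53 at 2.52-fold (0.910 to 6.98), Aif1 at 2.28-fold (1.26 to 4.13), Pf4 at 2.35-fold (0.335 to 16.5) and Wfdc17 at 0.645-fold (0.0974 to 4.28). Fcrls was at least 1.47-fold against the floor, from 5 counts with OPH and 0 with FMK. The interval of Cd68 held no ratio above 2.07, and those of Stab1 and Pf4 allowed ratios of 38.9 and 16.5.

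With the replicate number as a block, 6 of these genes were called higher with OPH: Mrc1 (adjusted p = 0.000576), Fcgr3 (0.00438), Itgam (0.0122), Cd68 (0.0147), Aif1 (0.0151) and Stab1 (0.0244). Without DMSO library 3, 5 of them were called (Fcgr3, Mrc1, Stab1, Cd68 and Aif1, adjusted p = 0.0178 to 0.0488). Single left-out libraries also brought calls of Fcgr3 without DMSO library 2 (adjusted p = 0.0362), of Itgam without FMK library 2 or OPH library 1 (adjusted p = 0.0273 and 0.00693), of Aif1 without FMK library 2 (adjusted p = 0.0450) and of Cd53 without FMK library 3 (adjusted p = 0.0486).

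Counts of Fcgr1 per count of Mrc1 were 0.0938, 0.0950 and 0.171 with DMSO and 8.44, 3.16 and 8.20 with OPH. This pair was chosen after its values were seen, one gene from each end of the OPH range, so the separation of the groups was fixed by the choice. The genes that kept 25% or more with OPH were Fcgr1, Cd14, Cybb, Pou2f2, Ptprc, Aif1 and Itgb2. Those under 5% were Folr2, Wfdc17, Stab1, Pf4, Mrc1 and Fcrls. As shares of the counts of the 39 genes, Mrc1 went from a mean of 4.39% with DMSO to 0.461% with OPH, and Cybb from 0.9746% to 4.31%. These ratios compare groups within a pair of genes, and no difference of differences was tested.

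DMSO library 3 stood apart within the controls. Of the 37 genes, 35 were lower in it than in the mean of DMSO libraries 1 and 2, at a median of 57.8% of that mean. The same share over all genes tested was not computed, so this count is a description. Wfdc17 was lowest at 21.6%, followed by Fcrls at 27.0% and Stab1 at 31.2%, while Coro1a stood at 115% and Itgb2 at 128%. A list of other myeloid signalling genes summed to 414, 470 and 309 CPM in DMSO libraries 1, 2 and 3. The osteoclast list went the other way, with 315 and 217 CPM in DMSO libraries 1 and 2 and 480 CPM in DMSO library 3. Without that library the median log2 fold change of the 37 was -6.22 with FMK and -3.11 with OPH, and 37 and 35 genes were called lower. In the libraries numbered 1 and 2 of each group the medians were -5.94 and -3.11, with 37 and 35 called.

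Other genes of the lineage were followed in 6 further lists that together held 87 genes, of which 69 were tested. With FMK 53 of the 69 were lower, against 10.1% of all genes, and 2 higher, against 10.4%, with a median log2 fold change of -4.05. With OPH 51 were lower, against 8.11%, and 3 higher, against 8.60%, with a median of -2.07. Between the inhibitors 28 were higher with OPH, against 4.20% of all genes, and 3 lower, against 4.66%. The signalling list fell in all 14 tested genes with FMK. Its smallest p-values were those of Sirpa, the receptor of CD47, at 24.6% of DMSO and so the least reduced of the 14, the adaptor gene Fyb at 1.69% and the kinase gene Lyn at 15.2%. In the list of pattern and phagocytic receptors, C3ar1, the receptor of complement C3a, kept 1.83% with FMK and 21.6% with OPH, and Msr1, a scavenger receptor, kept 1.51% and 20.0%. Cyth4, an exchange factor of small GTPases, kept 2.95% and 9.42%. Alox5ap, which activates the leukotriene enzyme 5-lipoxygenase, kept 7.33% and 19.4%.

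Genes named here from these lists for their direction were chosen after their values were seen. Cebpb, a transcription factor gene that many cell types express, rose from 60.3 ± 3.18 to 130.2 ± 6.16 CPM with FMK and 114 ± 12.3 CPM with OPH (SD, n = 3). Tlr2, the receptor of bacterial lipoproteins, rose from 9.88 ± 1.85 to 29.5 ± 6.03 CPM with FMK and 29.0 ± 0.536 CPM with OPH. Those lower with OPH than with FMK were Capg at 51.8%, Arhgdib at 53.5% and Cyba at 68.2%. Maf, a transcription factor gene, fell to 48.2% with FMK and 67.7% with OPH, while Irf8, of the myeloid lineage, fell to 9.33% and 23.6%.

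**Figure D4:**
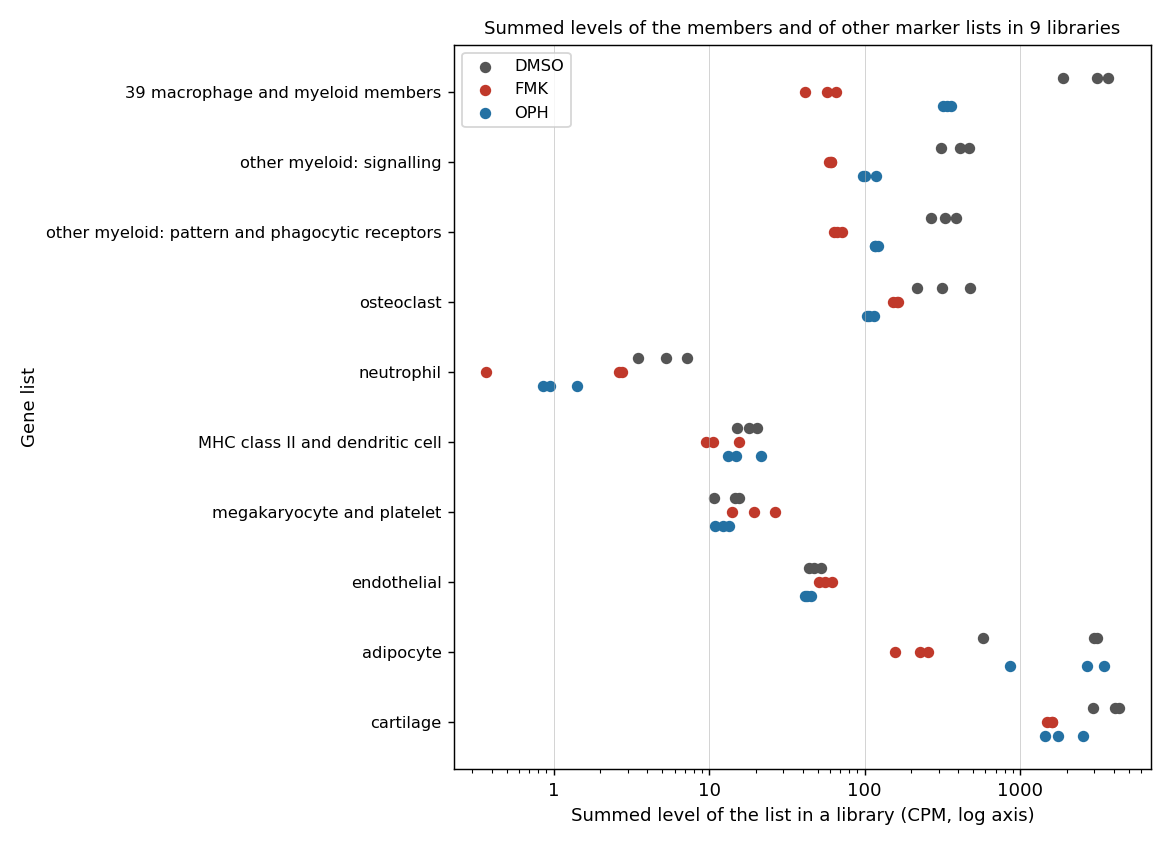
Summed CPM of the 39 genes and of 9 other marker lists in each of the 9 libraries on a log axis, with 1 point per library and groups by colour. The 39 genes span 41.7 to 65.3 CPM with FMK, 320.7 to 358.8 with OPH and 1898 to 3673 with DMSO, while the endothelial list stays between 41.4 and 62.1 CPM in all groups.

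Lists of other blood and vessel cells had few tested genes. Over all genes tested, 10.1% were lower and 10.4% higher with FMK, and 8.11% and 8.60% with OPH. The endothelial list had 0 of 5 lower and 2 higher with FMK, and 1 lower with OPH, and its sum was 44.1 to 52.4 CPM with DMSO, 50.9 to 62.1 CPM with FMK and 41.4 to 45.0 CPM with OPH. The list of MHC class II and dendritic cell genes had 1 of 6 lower with FMK, Cd83, and 0 with OPH. Its sums by library were 15.1 to 20.4, 9.62 to 15.6 and 13.3 to 21.5 CPM, and Flt3, Xcr1, Clec9a and Cd209a were at 0 in all libraries. No neutrophil gene had enough counts for the test, and the list summed to 3.48 to 7.24 CPM with DMSO, 0.367 to 2.77 CPM with FMK and 0.851 to 1.42 CPM with OPH. Of the lymphocyte list, Cd3e, Cd8a, Cd2, Ncr1, Gzma and Ms4a1 were at 0 in all libraries, and the 2 genes tested, Pax5 and Lck, were higher with both inhibitors. Pax5 had 0 counts with DMSO, 85 with FMK and 61 with OPH, and was at least 30.7-fold higher with FMK and at least 19.5-fold higher with OPH.

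Osteoclasts derive from the same lineage. Their list was lower in 4 of 8 tested genes with FMK, against 10.1% of all genes, and in 6 with OPH, against 8.11%. Tnfrsf11a, the receptor RANK, kept 7.20% with FMK and 20.4% with OPH, and Atp6v0d2, a proton pump subunit, kept 12.3% and 2.90%. Itgb3, an integrin gene also expressed outside this lineage, was higher with FMK, at 161% of DMSO, and lower with OPH, at 61.2%. Of the list of 14 lysosomal genes that many cell types express, 2 were lower and 4 higher with FMK, with a median of 0.12. With OPH 5 were lower and 2 higher, with a median of -0.05. Shares over all genes were 10.1% lower and 10.4% higher with FMK, and 8.11% and 8.60% with OPH. The microglia and tissue-resident list was lower in 2 of 6 tested genes with FMK and in 2 with OPH, with medians of -0.14 and -0.36. Its sums were 9076 to 9293 CPM with DMSO, 8041 to 8692 CPM with FMK and 6347 to 6631 CPM with OPH. In that list Apoe, an apolipoprotein, fell with FMK to 7.22% (adjusted p = 0.00747) and stood at 23.1% with OPH (adjusted p = 0.0543). Selenop fell to 13.1% and 20.5%.

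Of 6 tested ligands of myeloid receptors, 3 were higher with FMK, against 10.4% of all genes. With OPH 3 were higher, against 8.60%, and 1 lower, against 8.11%. Csf1, a ligand of Csf1r, rose from 113 ± 5.29 CPM with DMSO to 180.1 ± 22.0 CPM with FMK and 145 ± 14.05 CPM with OPH (SD, n = 3, adjusted p = 0.000121 and 0.0220). Cx3cl1, the ligand of Cx3cr1, rose to 322% of DMSO with FMK and 233% with OPH. Ccl2, a chemokine that draws monocytes, rose from 30.1 ± 6.22 to 311 ± 79.2 and 145 ± 27.4 CPM, and was lower with OPH than with FMK (46.6%, adjusted p = 0.0309). Csf2 and Csf3 were at 0 in all 9 libraries. Il34, the other ligand of Csf1r, stood at 1.86 ± 0.814 CPM with DMSO, 3.52 ± 0.651 CPM with FMK and 1.94 ± 0.899 CPM with OPH (SD, n = 3) and was not called (adjusted p = 0.249 and 0.959). The chemokine gene Cxcl12 fell to 65.5% with OPH (adjusted p = 0.0300), and Tgfb1 was not called.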

How the data were processed

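RNA was measured in 9 libraries by sequencing of transcript 3' ends (QuantSeq). The authors deposited raw counts per gene and library. The tools named, without versions, are STAR, cutadapt, FastQC, MultiQC and DESeq2, and the build is mm10, per the submitters' processing notes. Not given in the sources used here are the counting program, its annotation and its use of strand and of multi-mapping reads. Columns of the 9 libraries were assigned by sample name, 2 exactly and 7 with a letter added, and 99 rows that name no gene, with 1 count in all, were left out. Of the identifiers 99.7% were found in GENCODE M21.

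The test was edgeR 4.0.16 (R 4.3.3). The filterByExpr function kept 13255 genes, libraries were scaled by TMM (factors 0.946 to 1.03), and all 9 libraries entered 1 robust quasi-likelihood fit, with a coefficient for each group, with two-sided tests and Benjamini-Hochberg adjustment over all genes tested. Counts simulated with known falls were also run through the test. Their outcome is not reported here, so they back no call or interval given above. Intervals of fitted values are 95% intervals from a standard error, the size of the log2 fold change over the square root of the test's F statistic. Where a gene fell to few counts, such an interval can be too narrow. With FMK, Trem2 at 4 counts spans 0.413% to 1.32% in this way. Ptpn6 at 3 counts, with an interval from counts, spans 0.1798% to 2.58%. A gene with 0 counts in a group is given as a bound from 3 counts over the group (0.147 to 0.166 CPM), and one with 1 to 3 counts as a ratio of counts with an exact binomial interval. Reads are not independent molecules, so these bounds and intervals cover counting error only. With 3 libraries a side, exact permutation cannot reach a p under 0.1.

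That replicates are biological rests on the labels. Libraries with the same number deviated together in every pair (correlations 0.102 to 0.344 over genes), though the labels do not say what a number marks. The main fit held no term for the number, so its calls, adjusted p and intervals are unpaired. Pairing by number entered only through the alternative with the replicate block. Alternatives were RLE normalization or library size alone, no or a stricter filter, DESeq2 1.42.0, limma-voom (limma 3.58.1), only the groups compared, the replicate block, the libraries numbered 1 and 2, and each library left out.

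Every member was to be accounted for by role, with values in each library for those with most and least left in a role and for those called between the inhibitors, and at most 3 genes per other list, by smallest p. Levels in each library were given for further members. The members and lists were chosen with earlier results of these data known. Some genes of the other lists are not reported here.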

Additional observations from a re-analysis of the deposited data

How the results depend on the processing

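Of 664 values of the 37 genes under 18 alternatives with FMK against DMSO, 656 kept direction and call, as did 636 of 664 with OPH against DMSO and 579 of 653 with OPH against FMK. With a library left out, 36 to 37 of the genes were lower with FMK, 32 to 35 lower with OPH, and 21 to 30 higher with OPH than with FMK. Their medians were -6.22 to -5.53, -3.11 to -2.81 and 2.68 to 3.09. The number higher with OPH than with FMK was 12 with limma-voom, and over all genes 2139 were called in that comparison with the replicate block and 571 to 1386 with a library left out (712 without FMK library 1, 709 without FMK library 2 and 571 without OPH library 2). The cause was not tested. Apart from the 8 calls given beside the results, the pairing by replicate block changed no other call of these genes. For values that were not called between OPH and FMK, the sign of the log2 fold change turned for Folr2 without OPH library 1 (0.0333). Fcrls held 0 counts with FMK, so its value there is set against the floor of 3 counts. That value was below 0 without FMK library 1, FMK library 2 or OPH library 2 (-0.04, -0.08 and -1.15). This comes from the floor and does not show less Fcrls with OPH. Over all left-out libraries the floor-based value of Fcrls ranged from -1.15 to 1.10, and Folr2 ranged from -1.63 to 0.0333. Genes under the stricter filter or absent from a fit have no value there. Without TMM, the all-gene median was -0.11 for FMK against DMSO and 0.12 for OPH against FMK. That setting lost no call of these genes and gained 3 (Aif1, Cd68 and Itgam, OPH against FMK).

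Depth limits genes with few counts in a group. A level under 0.147 to 0.166 CPM over a group could not be told from 0. The levels left of Pou2f2, Pik3cg, Fcrls, Pirb and Cd300lb with FMK, at 0 counts, are bounds. Ptprc (2 counts, mean 0.122 CPM) and Mrc1 (3 counts, mean 0.155 CPM) also stood below the FMK floor of 0.166 CPM. They are given as ratios of counts, so their levels left and their ratios of OPH to FMK are uncertain to that extent.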
